A study of Homo sapiens with 16 samples.

Results

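The RNA of HCT116 cells, an established human colon cancer cell line, was described without G9a knockdown from the libraries that serve as controls for a knockdown of G9a. The members are all samples whose source label names them as the control of the G9a siRNA. They are 4 of the 16 samples of the series, or 2 of its 8 libraries, each sequenced in 2 runs. G9a (EHMT2) methylates histone H3 at lysine 9, and the series' title links this mark to transcription and chromosome folding. The other groups, also HCT116, received the inhibitor BIX 01294 at 0.5 µM for 72 h, its control, or 10 nM of a G9a siRNA by lipid transfection for 72 h. The treatment of the control cells is not stated in the labels used here, and these do not say whether libraries 1 and 2 came from separate cultures, although the design text calls 2 replicates biological. No groups were contrasted, so no test was run, and values are given for both libraries in that order, as library 1 and library 2.

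A total RNA library holds messenger RNAs beside abundant structural RNAs, such as the RNA of the signal recognition particle, which a library of polyadenylated RNA would mostly miss. Colon epithelium renews itself from crypt stem cells that depend on Wnt signals, and its cells mature into absorptive colonocytes and into secretory goblet, tuft and enteroendocrine cells. HCT116 cells are known to carry activating mutations of PIK3CA and CTNNB1 and a defect of mismatch repair. These are background facts and were not read from the files.

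Levels are FPKM, fragments per kilobase of transcript scaled to the number of mapped fragments, which the authors deposited per gene. A gene was called detected at 1 FPKM or more in both libraries and silent below 0.1 FPKM in both. The files give no counts, and the depth was estimated from the confidence bounds beside each value. A gene near 1 FPKM rested on 13 and 13.9 implied fragments in the runs of library 1 and on 2.70 and 2.67 in those of library 2, so low levels are much less precise in library 2. A gene near 10 FPKM rested on 223 and 246, and on 53.8 and 58.7. Near 0.1 FPKM the runs of library 1 gave 1 implied fragment each, and those of library 2 gave 0.485 and 0.536. A silent call or a listing at 0 therefore cannot tell absence from a level too low for this depth. EHMT2 (chromosome 6, 31847536 to 31865464 in hg19) was at 16.1 and 16.4 FPKM in these controls. In the siRNA libraries it was at 4.59 and 3.98 FPKM, so the labels and the targeted gene went together. EHMT2 was higher in the controls of the inhibitor, at 27.0 and 21.7 FPKM, and in the inhibitor libraries, at 20.2 and 20.3 FPKM. The reason was not tested.

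Among 57248 genes on the primary chromosomes, 12528 (21.9%) were detected and 33402 (58.3%) were silent, of which 27439 were listed at 0 in all 4 runs. Protein-coding genes were the best covered. Of 19195, 10564 (55.04%) were detected, 5409 (28.2%) were silent and 3222 lay in between. Their level spread over a wide range, with 5139 at 10 FPKM or more in both libraries, 468 at 100 or more and 33 at 1000 or more. The 10 highest held 6.15% of the protein-coding FPKM, the 100 highest 29.9% and the 1000 highest 63.7%, and 405 genes were enough for 50%. Only 700 of 12929 long noncoding RNA genes (5.41%), 821 of 13138 pseudogenes and 13 of 1395 microRNA genes reached the level for detection. MicroRNA genes stand here for their precursor transcripts, not for the mature molecules.

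The 2 libraries gave nearly the same order of genes. Over 13277 genes of at least 300 bases at 1 FPKM or more in either library, Pearson's r of log2(FPKM + 1) was 0.990 and Spearman's rho was 0.987, as a description across genes, which share the libraries and are not replicates. At a mean of 10 FPKM or more, 5658 genes had a median absolute log2 difference of 0.16, and 0.601% of them differed by more than 1.5-fold. Library 1 tended to be higher, with a median ratio of 1.104. At 1 to 3 FPKM, 19.3% of genes differed by more than 1.5-fold, so single values in that range say little.

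**Figure D1:**
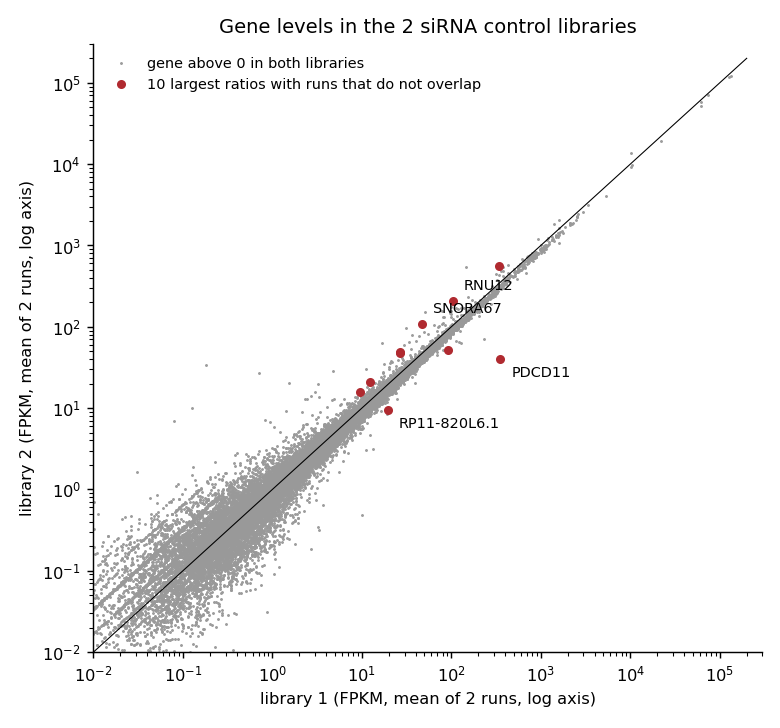
Each grey point is a gene above 0 in both libraries, with FPKM (mean of 2 runs, log axes) in library 1 across and in library 2 up; levels under 0.01 FPKM fall outside the axes. The line marks equal levels. Red points are the 10 genes with the largest ratios among those of at least 300 bases and a mean of 10 FPKM or more whose runs did not overlap between libraries, of which PDCD11 stands farthest off the line.

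PDCD11, which encodes a nucleolar factor of ribosome assembly, had the largest difference among genes of at least 300 bases at a mean of 10 FPKM or more whose runs did not overlap between libraries, at 353 and 40.4 FPKM. The difference came almost wholly from a single run. In library 1 the runs gave 661 and 45.2 FPKM, and in library 2 they gave 41.0 and 39.7 FPKM. The next 9 by this rule included 4 small noncoding RNA genes or copies of them. SNORA67, whose annotated locus overlaps the messenger RNA gene EIF4A1, was at 46.7 and 110 FPKM, and RNU12, the U12 RNA of the minor spliceosome, was at 104 and 208 FPKM. SNHG9 was at 91.4 and 52.2 FPKM, RN7SKP203 at 338 and 554 FPKM, and the histone gene HIST2H2AA3 at 9.48 and 15.7 FPKM. The others were RP11-820L6.1, RP11-3P17.5, RN7SKP255 and CIZ1, with log2 differences of library 1 over library 2 of 1.05, -0.88, -0.85 and -0.75.

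Run number left its own mark on the values. Over the 5658 genes, run 1 of library 1 correlated with run 1 of library 2 at r = 0.990 and both second runs did so at 0.991, whereas the 2 runs within a library correlated at 0.985 and 0.980. Without the 114 pseudogenes among them, the same-numbered runs correlated at 0.991 and 0.992 and the 2 runs within a library at 0.993 and 0.987. Ribosomal protein genes were lower in run 1, with a median log2 difference of run 1 over run 2 of -0.22 in library 1 and -0.23 in library 2, and the other protein-coding genes had -0.09 in both. Of the 114 pseudogenes at 10 FPKM or more, 56 (49.1%) were over 1.5-fold higher in run 1 than in run 2 in both libraries, against 0 of 5245 protein-coding genes outside the ribosomal protein and histone families. RPL7P9, a processed copy of a ribosomal protein gene, was at 83.4 and 11.5 FPKM in the runs of library 1 and at 69.9 and 9.43 FPKM in those of library 2. SNORD3B-1, a near-identical copy of the U3 RNA gene, was at 34.7 and 2.12 FPKM, and at 40.8 and 2.96 FPKM. The levels of such copies given as run means therefore blend unlike values, and the cause was not tested.

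Structural RNAs had the highest levels of all. RN7SL1 (chromosome 14, 50053297 to 50053596) was the highest gene, at 135007 and 120712 FPKM, followed by RN7SL2 at 127169 and 118020 FPKM. Both encode the RNA of the signal recognition particle, which guides ribosomes to the endoplasmic reticulum. Next came SNORD3A, the U3 RNA of ribosomal RNA processing, at 73614 and 69928 FPKM, and RN7SK, the RNA that holds the elongation factor P-TEFb inactive, at 61579 and 57801 FPKM. RMRP, the RNA of the endonuclease RNase MRP, was at 60952 and 52100.1 FPKM, and RPPH1, the RNA of the tRNA-processing RNase P, was at 22016 and 19259.8 FPKM. The 6 genes together made up 48.5% to 50.3% of the FPKM summed over a run.

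After them came RNU2-2P, a U2 spliceosomal RNA gene, at 10278 and 13548 FPKM, the mitochondrial 12S ribosomal RNA MT-RNR1 at 10549.5 and 9704 FPKM, and another signal recognition particle gene, RN7SL3, at 10128 and 9194 FPKM. RNA28S5, the large cytosolic ribosomal RNA, was at 7434 and 9983 FPKM. SNORA63, a guide RNA for pseudouridine formation, was at 5341 and 4013 FPKM, and the long noncoding RNA SNHG3 was at 3377 and 3185 FPKM. The highest messenger RNAs followed only there, with EEF1A1 at 2959.7 and 2588 FPKM, GAPDH at 2612 and 2438 FPKM and the mitochondrial MT-CO3 at 2506 and 2295 FPKM. The RN7SL copies are near-identical, and how fragments were split among them is not stated in the sources used.

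By class, 7SK and 7SL RNAs took 34.8% ± 0.022 of the summed FPKM (SD, n = 2), small nucleolar and Cajal body RNAs 10.6% ± 0.29 and RNase P and MRP RNAs 8.31% ± 0.38. Spliceosomal RNAs took 2.12% ± 0.45 and ribosomal RNAs 2.04% ± 0.25, without the mitochondrial 16S RNA MT-RNR2, which Cufflinks did not estimate. Of 561 listed ribosomal RNA genes, 2 were detected. Any removal of ribosomal RNA before sequencing was not examined. All these shares therefore describe the libraries as sequenced and need not give the makeup of RNA in the cells. Among protein-coding classes, cytosolic ribosomal proteins took 7.41% ± 0.34, replication-dependent histones 2.03% ± 0.02, mitochondrial messenger RNAs 0.515% ± 0.011 and all others 29.4% ± 0.37. Long noncoding RNAs took 1.37% ± 0.025. FPKM divides by length, so that a short RNA gains a large value from few fragments. The short structural classes together held 55.8% and 56.4% of FPKM but 13.4% and 13.6% of FPKM multiplied by transcript length. The protein-coding classes went from 39.9% and 38.9% to 76.3% and 74.9%. The product is only a rough guide to the share of fragments. It used the longest transcript of each gene, or the locus length where none matched, which can overstate genes with several transcripts or with none matched.

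**Figure D2:**
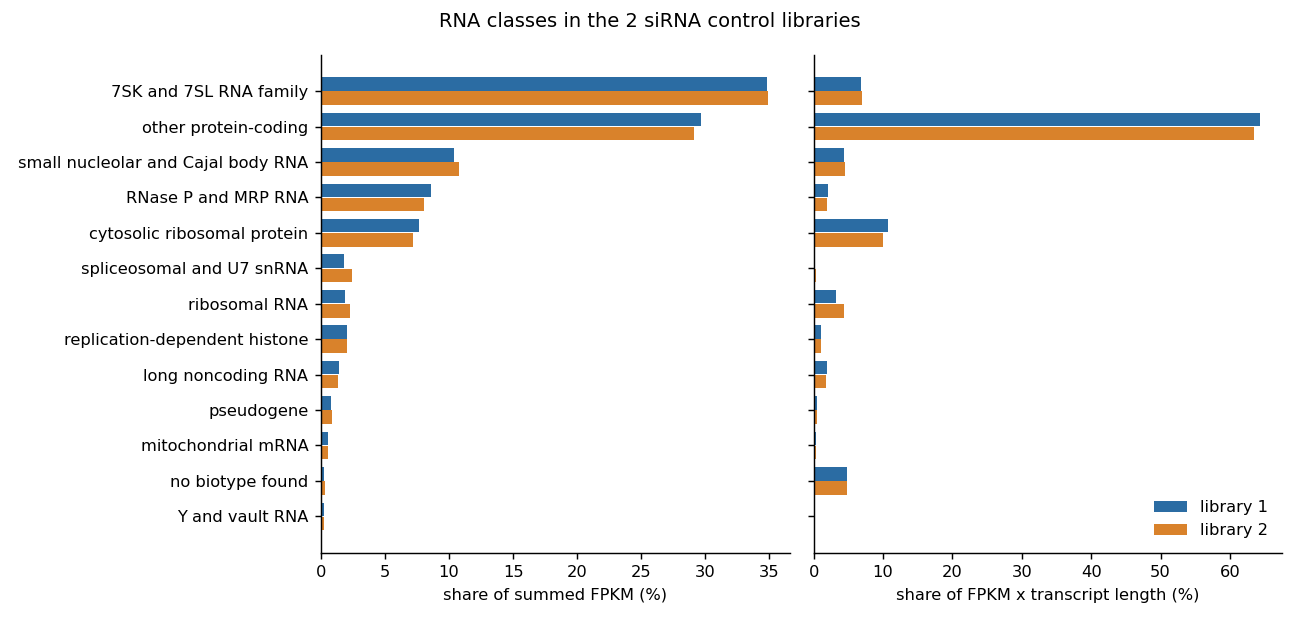
Bars give the share of each RNA class in the summed FPKM (left) and in FPKM multiplied by transcript length (right) for library 1 and library 2, for classes above 0.2% in both measures together. 7SK and 7SL RNAs lead on the left with 34.8%, and other protein-coding genes lead on the right; genes with no biotype found were multiplied by their locus length, which raises their bar on the right.

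The most abundant messenger RNAs were those of protein synthesis. Of the 30 highest nuclear protein-coding genes, 18 encoded cytosolic ribosomal proteins, led by RPS27 at 2502 and 2045 FPKM, and 2 encoded linker histones, HIST1H1C at 1321 and 1157 FPKM and HIST1H1E at 1172 and 1154 FPKM. The 10 others were EEF1A1, which carries aminoacyl-tRNA to the ribosome, GAPDH of glycolysis, the nucleolar chaperone NPM1, the actin-binding TMSB10, the chaperones HSPA8 and HSP90AB1, the iron store FTL, the ribosomal scaffold GNB2L1 (RACK1), the prolyl isomerase PPIA and the chromatin protein PTMA. In the gene family counts, 80 of 83 cytosolic ribosomal protein genes were detected, with a median of 804 FPKM. Of the mitochondrial ones, 75 of 76 were detected, with a median of 49.3 FPKM. The detected share over all protein-coding genes was 55.04%. RPS16 stood below its family at 17.9 and 18.7 FPKM, and the 3 not detected were the tissue-restricted paralogs RPL3L (0.559 and 1.23 FPKM), RPL10L and RPL39L.

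The listed proliferation genes were detected almost without exception. The members of this and the other lists were chosen with earlier results of these data known. The share of a list therefore does not stand for its gene type as a whole. Of 37 cyclin, cyclin-dependent kinase, replication and mitosis genes, 35 were detected and 2 were silent, against 55.04% and 28.2% of all protein-coding genes. CCNB1, the cyclin of mitotic entry, was at 228 and 207 FPKM, the replication clamp PCNA at 184 and 158 FPKM, and the helicase subunit MCM7 at 165 and 153 FPKM. CDK4 and CDK1, the kinases of the G1 phase and of mitosis, were at 129 and 121 FPKM and at 128 and 106 FPKM. The 2 silent genes were CCND2 and CCNA1, both listed at 0, while their paralogs CCND1 and CCNA2 were at 87.8 and 93.1 FPKM and at 62.3 and 51.7 FPKM. All 19 genes of CDK inhibitors and the RB and E2F families were detected, among them CDKN2A at 30.8 and 28.7 FPKM and RB1 at 8.90 and 6.91 FPKM. TERT, the catalytic subunit of telomerase, was at 4.46 and 3.30 FPKM, and TERC, its RNA template, at 182 and 184 FPKM.

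The label of a colon epithelial line was checked against its markers. The simple keratins KRT19 (chromosome 17, 39679869 to 39684560), KRT8 and KRT18 were at 232 and 213.9, 168 and 158, and 154 and 140 FPKM, and the adhesion molecule EPCAM was at 81.5 and 67.9 FPKM. CDX2, the homeobox factor of intestinal identity, was at 2.70 and 4.64 FPKM. The epithelial cadherin CDH1, however, was at 1.04 and 0.597 FPKM, and the microvillus protein VIL1 at 0.177 and 0.182 FPKM, so neither was detected. In the other 6 libraries CDH1 lay between 0.641 and 2.08 FPKM and VIL1 between 0.161 and 0.401 FPKM.

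Over the whole epithelial list, 34 of 46 genes (73.9%) were detected and 2 (4.35%) were silent, against 55.04% and 28.2% of all protein-coding genes. The protease inhibitor SPINT2 was at 86.8 and 74.9 FPKM, the catenins CTNNA1 and CTNND1 at 63.5 and 60.6 and at 23.8 and 22.6 FPKM, and the tight junction claudin CLDN7 at 18.95 and 19.34 FPKM. The splicing regulators ESRP1 and ESRP2, which set epithelial isoforms, were at 7.25 and 6.17 and at 8.09 and 9.31 FPKM. GRHL2 and ELF3, transcription factors of epithelia, were lower, at 0.194 and 0.225 and at 0.639 and 0.289 FPKM. CLDN1, a claudin of tight junctions, was silent.

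Of 30 intestinal transcription factors, 14 (46.7%) were detected and 7 (23.3%) were silent, shares not far from those over all protein-coding genes (55.04% and 28.2%). The zinc finger factor KLF5 of crypt cells was at 24.7 and 24.0 FPKM, and the nuclear receptor NR5A2 was at 20.8 and 18.2 FPKM. HNF4G was at 2.04 and 1.60 FPKM, whereas HNF4A was at 0.391 and 0.393 FPKM and GATA6 at 1.03 and 0.997 FPKM. CDX1, FOXA2, GATA4 and FOXQ1 were listed at 0. Of 19 stem cell markers, 8 (42.1%) were detected and 6 (31.6%) were silent, again not far from the shares over all protein-coding genes. CD44 was at 12.6 and 12.4 FPKM and BMI1 at 49.6 and 37.1 FPKM, while LGR5, the receptor that marks crypt base stem cells, was at 0.031 and 0.016 FPKM and OLFM4, ASCL2 and SMOC2 were listed at 0.

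Listed markers of mature intestinal cells were mostly not detected. The lists hold markers of enterocytes and Paneth cells beside those of colonocytes, so their shares do not describe the colon alone. Of 38 colonocyte and enterocyte markers, 25 (65.8%) were silent and 3 (7.89%) were detected, against 28.2% and 55.04% of all protein-coding genes. The 3 were the carbonic anhydrases CA2 (20.5 and 21.99 FPKM) and CA12 (2.81 and 2.51 FPKM) and the sulfate transporter SLC26A2 (3.65 and 3.13 FPKM). The fatty acid binding protein FABP1, the brush border enzyme SI, the guanylin genes GUCA2A and GUCA2B and the antigen CEACAM5 were listed at 0. None of 30 secretory cell markers was detected and 21 were silent, including the goblet cell genes MUC2 and TFF3, both at 0. In the mucin family 0 of 17 genes were detected, and the highest, MUC20, was at 0.574 and 0.320 FPKM.

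Markers of other cell types were mostly low but not uniformly so. Of the lists for other lineages, 3 of 22 fibroblast genes, 2 of 28 blood genes, 1 of 13 endothelial genes and 4 of 26 neuronal genes were detected. The lists also had 4 of 25 muscle genes, 0 of 25 liver genes and 3 of 25 squamous genes detected. Over all protein-coding genes the detected share was 55.04%. Of the defining markers, COL1A2, LUM, PTPRC, CD3E, MYOD1 and APOB were listed at 0. Others of them were above 0 but not detected. PDGFRB was at 0.532 and 1.08, SYT1 at 0.657 and 0.351, and ALB at 0.404 and 0.659 FPKM. RBFOX3 was at 0.128 and 0.240 and ACTA1 at 0.184 and 0.264 FPKM. The collagen gene COL6A2 of the fibroblast list was at 9.91 and 10.3 FPKM. The macrophage marker CD68 of the blood list was at 11.7 and 9.43 FPKM. The highest values in these lists were TUBB3, the tubulin used as a neuronal marker, at 91.4 and 90.1 FPKM, the tropomyosin TPM2 at 120 and 113 FPKM, TNNT1, the slow skeletal troponin T, at 72.6 and 67.6 FPKM, and SFN, a 14-3-3 protein of squamous cells, at 34.1 and 30.7 FPKM. Troponin I of the heart, TNNI3, was at 9.34 and 8.60 FPKM.

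**Figure D3:**
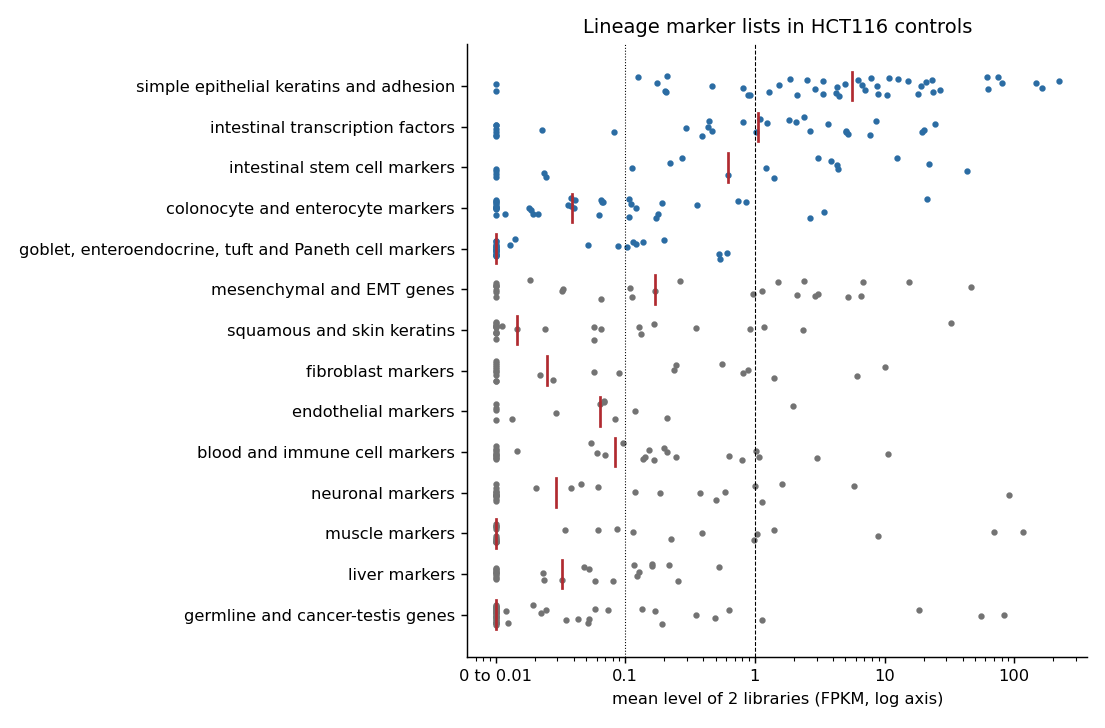
Each point is a gene of a lineage list at its mean FPKM in the 2 libraries (log axis; values up to 0.01, zeros included, are drawn at the left end), and the red bar is the list's median. The dashed and dotted lines stand at 1 and 0.1 FPKM. Epithelial genes lie mostly to the right of 1 FPKM, and the lists of other lineages lie mostly to the left, with single genes far to the right.

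Of 27 mesenchymal genes, 11 (40.7%) were detected and 11 (40.7%) were silent, beside 55.04% and 28.2% of all protein-coding genes. The calcium-binding S100A4 was at 47.7 and 45.5 FPKM, the intermediate filament VIM at 15.8 and 15.2 FPKM and the transcription repressor ZEB1 at 7.34 and 5.89 FPKM. CDH2, the cadherin of mesenchymal cells, was silent, and TWIST1, TWIST2 and ZEB2 were listed at 0. Germline and cancer-testis genes were the most silent list, with 38 of 48 silent and 25 listed at 0. Those that were high are antigens known from many tumours: MAGEB2 (X chromosome, 30233677 to 30238206) at 88.6 and 79.1 FPKM, MAGEA12 at 60.5 and 50.2 FPKM and PRAME at 19.4 and 17.7 FPKM. MAGEA2 was at 1.12 and 1.17 FPKM, its copy MAGEA2B was at 11.4 and 6.51 FPKM, and MAGEA3 was silent. MAGEA genes are near-identical copies and their split is uncertain.

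Among growth factor receptors, ERBB2, ERBB3 and EGFR were at 8.19 and 8.92, 4.14 and 4.71, and 4.25 and 4.12 FPKM, and ERBB4 was silent. Their ligands EREG and NRG1 were at 10.7 and 9.20 and at 10.1 and 8.64 FPKM. Of 39 other receptor tyrosine kinases, 17 (43.6%) were detected and 10 (25.6%) were silent, beside 55.04% and 28.2% of all protein-coding genes. The highest were the Wnt co-receptor RYK (35.6 and 29.98 FPKM), the ephrin receptor EPHA2 (27.9 and 27.2 FPKM) and the hepatocyte growth factor receptor MET (19.2 and 16.6 FPKM). KIT, NTRK2 and EPHA4 were listed at 0.

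The listed RAS, RAF, ERK and PI3K nodes were nearly all detected, 33 of 36 (91.7%), against 55.04% of all protein-coding genes. The GTPase genes HRAS and NRAS were at 40.6 and 36.0 and at 35.6 and 32.0 FPKM. FPKM corrects for length, so these levels can be set side by side, within the limits of the annotated transcripts. The lipid kinase subunit PIK3CA was at 7.33 and 6.87 FPKM. PIK3CG was silent and PIK3CD was at 0.635 and 0.742 FPKM. Of 34 genes known to be induced by ERK, 28 were detected, including the phosphatases that feed back on the kinase, DUSP5 at 60.3 and 59.7 FPKM and DUSP6 at 37.3 and 39.4 FPKM, and the AP-1 subunit FOSL1 at 30.8 and 31.9 FPKM. MYC, the growth regulator that is a target of both the ERK and Wnt pathways, was at 134 and 126 FPKM, and MYCN was listed at 0.

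Wnt genes differed by role. Of 19 ligands, 3 were detected, WNT16 at 11.8 and 10.7 FPKM, WNT10B at 5.43 and 4.76 FPKM and WNT3 at 1.67 and 1.53 FPKM. Of 37 genes of receptors, the destruction complex and nuclear factors, 29 were detected, with CTNNB1 (beta-catenin) at 127 and 118 FPKM, its kinase CSNK1A1 at 109 and 102 FPKM and the scaffold APC at 11.7 and 9.52 FPKM. TCF7L2 and TCF7, which bind DNA with beta-catenin, were at 5.62 and 4.79 and at 4.97 and 4.02 FPKM, and LEF1 was listed at 0. Of 31 targets and inhibitors, 15 (48.4%) were detected and 12 (38.7%) were silent, beside 55.04% and 28.2% of all protein-coding genes. DKK1 (chromosome 10, 54074056 to 54077802), a secreted inhibitor of Wnt receptors, was by far the highest, at 513 and 482 FPKM, rank 114 among nuclear protein-coding genes. AXIN2, the feedback scaffold, was at 4.26 and 4.30 FPKM. The secreted inhibitors WIF1 and SFRP2 were listed at 0, and SFRP1, SFRP4 and SFRP5 were silent.

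**Figure D4:**
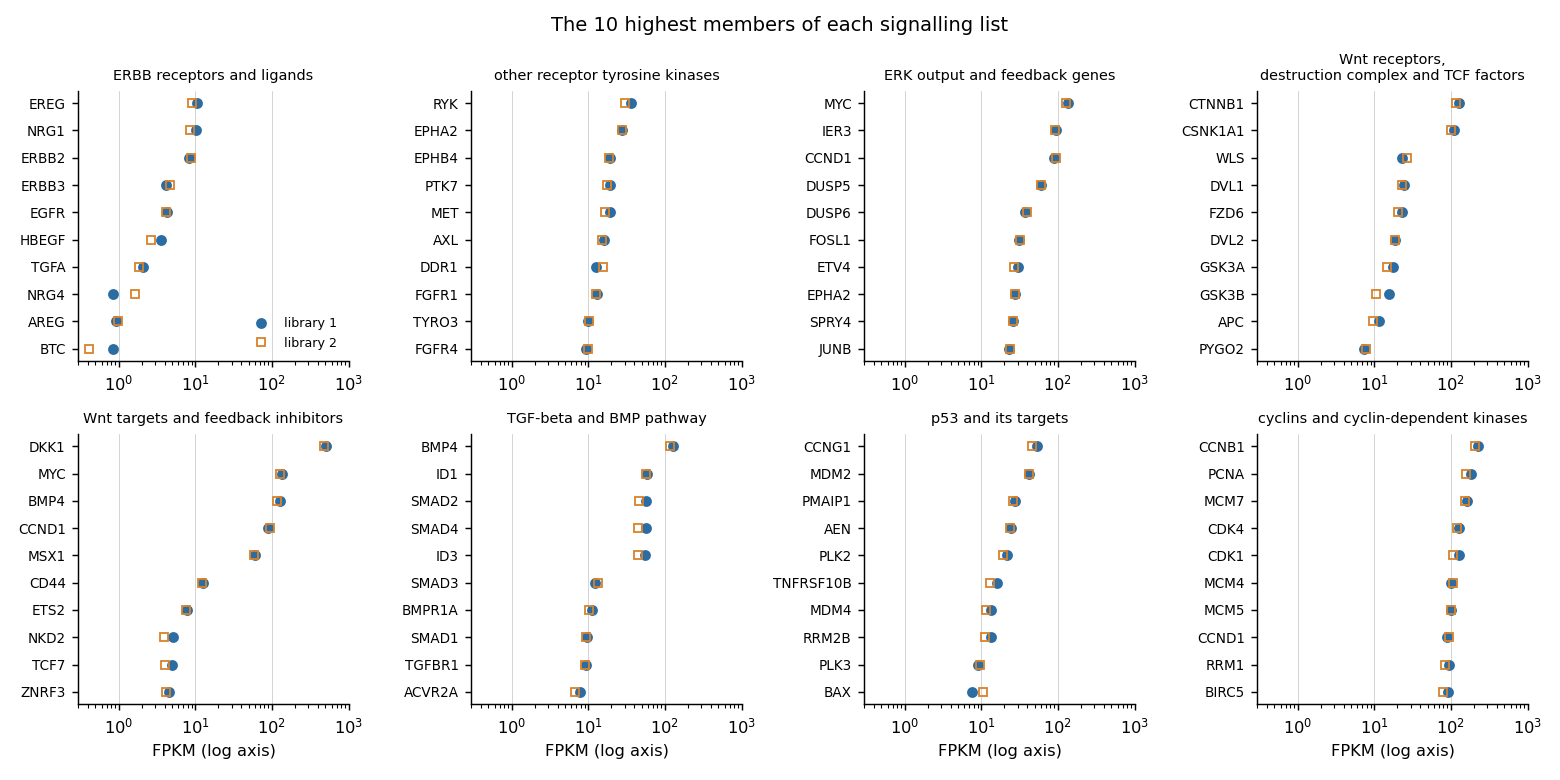
For 8 signalling lists, the 10 genes with the highest mean are shown with FPKM in library 1 (filled circles) and library 2 (open squares) on a log axis. DKK1 at 513 and 482 FPKM is the highest value in the panels, and the 2 libraries lie close together except for a few genes near 1 FPKM.

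In the TGF-beta and BMP pathway 19 of 29 genes (65.5%) were detected, beside 55.04% of all protein-coding genes. The ligand BMP4 was at 128 and 117 FPKM, and its targets ID1 and ID3, inhibitors of differentiation factors, were at 58.1 and 57.2 and at 55.1 and 44.5 FPKM. BMP2 and ID4 were listed at 0. SMAD2 and SMAD4, the signal transducers, were at 56.0 and 46.3 and at 57.0 and 45.3 FPKM, and the receptor TGFBR2 was at 2.14 and 2.22 FPKM.

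Of 31 p53 pathway genes, 26 (83.9%) were detected, beside 55.04% of all protein-coding genes. The ubiquitin ligase MDM2 was at 41.5 and 42.0 FPKM, and the cell death gene PMAIP1 at 27.5 and 25.7 FPKM. CDKN1A, which encodes the cell cycle inhibitor p21, was at 3.94 and 3.72 FPKM, and GDF15 was at 0.417 and 0.552 FPKM. Of 10 mismatch repair genes 9 were detected. MSH6 was at 43.9 and 40.2 FPKM and MSH3 at 2.71 and 2.00 FPKM. Levels say nothing of sequence changes in these genes.

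The listed genes that write and read repressive chromatin were nearly all detected. Of 30 genes of DNA and H3K9 methylation, 29 (96.7%) were detected, beside 55.04% of all protein-coding genes, and only DNMT3L was silent. TRIM28, the corepressor that recruits the H3K9 methyltransferase SETDB1, was at 364 and 331 FPKM, the heterochromatin protein gene CBX3 at 219 and 178 FPKM and the maintenance DNA methyltransferase DNMT1 at 46.6 and 44.9 FPKM. EHMT1, the partner of G9a, was at 12.3 and 14.6 FPKM. DNMT3B and DNMT3A, the enzymes of new methylation, were at 5.97 and 5.84 and at 1.23 and 1.13 FPKM.

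Paralogs within metabolic and structural families were at unlike levels. Of the lactate dehydrogenases, LDHB was at 648 and 566 FPKM and LDHA at 195 and 197 FPKM, and the testis form LDHC was listed at 0. Cytoplasmic actins ACTG1 and ACTB were at 1016 and 1022 and at 759 and 760.1 FPKM, while the muscle actins ACTA1, ACTA2, ACTC1 and ACTG2 were all below 0.4 FPKM. Of the P450 genes, 9 of 55 were detected, beside 55.04% of all protein-coding genes. CYP51A1 of sterol synthesis was at 129 and 111 FPKM and CYP24A1, which degrades vitamin D, at 61.1 and 60.7 FPKM. B2M, the light chain of the antigen-presenting complex, was at 277 and 226 FPKM. The cytokines IL6, IL1B and TNF were silent, and IFNB1, IFNG and CXCL10 were listed at 0.

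Among listed long noncoding RNAs, 30 of 40 (75%) were detected, against 5.41% of all 12929 such genes. The list was chosen with earlier results of these data known, so its share does not stand for long noncoding RNA genes as a whole. The highest of all such genes were hosts of small nucleolar RNAs, SNHG3 at 3377 and 3185 FPKM and SNHG7 at 1600.5 and 1061 FPKM, followed by RP5-940J5.9 at 718 and 746 FPKM, which lies antisense within the GAPDH locus. The strand setting of the counting is not stated in the sources used, so the last value and GAPDH cannot be told apart with certainty, nor can the hosts and their small RNAs. GAS5 was at 417 and 371 FPKM. The nuclear speckle RNA MALAT1 was at 63.8 and 63.6 FPKM and the paraspeckle RNA NEAT1 at 3.72 and 3.86 FPKM. HOTAIR was listed at 0.

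Developmental gene clusters were set at different levels. HOX genes encode factors of position along the body axis. For comparison, 55.04% of all protein-coding genes were detected and 28.2% were silent. In the HOXA cluster 9 of 11 genes were detected, with HOXA9 at 22.8 and 23.5 FPKM and HOXA10 at 12.18 and 12.03 FPKM. In HOXB 4 of 10 were detected, led by HOXB7 at 17.1 and 14.8 FPKM. HOXC and HOXD each had 1 of 9, namely HOXC9 at 3.49 and 2.77 FPKM and HOXD8 at 2.14 and 1.49 FPKM, and 7 HOXD genes were silent.

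Some families were silent nearly throughout. Of 354 olfactory receptor genes 0 were detected, 344 (97.2%) were silent and the highest mean was 0.339 FPKM. Of 44 defensins 43 were silent, and of the clustered protocadherins 14 of 15 alpha, 14 of 15 beta and 18 of 21 gamma genes were silent, where overlapping transcripts make the split among alpha or gamma genes uncertain. Of 91 keratin-associated protein genes of hair, 81 were silent, and KRTAP2-3 alone was detected, at 9.53 and 9.11 FPKM. Of 507 ZNF genes, 289 (57.0%) were detected and 30.4% were silent, near the shares over all protein-coding genes (55.04% and 28.2%).

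Silent protein-coding genes lay next to each other in long runs, which were picked out after their values were seen. The longest held 60 genes on chromosome 11, from OR4B1 to APLNR (48238344 to 57004709), of which 52 were olfactory receptors. The next held 51 genes on chromosome 1, from TCHHL1 to S100A7 (152056620 to 153433177), a region of genes of the outer epidermis such as FLG and IVL, and none of them exceeded a mean of 0.034 FPKM. Another held 35 genes on chromosome 21 (30909254 to 32410795), 32 of them keratin-associated. The longest runs of detected genes held 22, from DENR to ATP6V0A2 on chromosome 12 (123237321 to 124246302) and from HID1 to RECQL5 on chromosome 17 (72946838 to 73663269). Over whole chromosomes the detected share was highest on 22 (62.2%) and 16 (61.8%) and lowest on X (41.1%) and 21 (47.2%).

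Promoter sequence was then set beside the level, for the 14962 of 19195 protein-coding genes that matched a RefSeq promoter of GRCh38.p14, from 250 bases before to 50 after the start site. The first start listed per gene was used, which need not be the one active in these cells. A promoter was called CpG-rich at 55% GC or more with an observed CpG count of at least 0.65 of that which its bases would give. Vertebrate CpG-rich promoters are usually those of broadly used genes, and the TATA box fixes the start site of many tissue-specific or strongly induced genes. The first group of sequences shows paralogs or pathway members with CpG-rich promoters on both sides of the level, 120 bases upstream of the start with each CG in capitals, and the second shows TATA promoters, with the word TATAAA in capitals.
CCNA2, 62.3 and 51.7 FPKM, chr4:121823884-121824003, minus strand: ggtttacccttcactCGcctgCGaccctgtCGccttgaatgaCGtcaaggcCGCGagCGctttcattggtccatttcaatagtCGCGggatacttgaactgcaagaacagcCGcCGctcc
CCNA1, listed at 0, chr13:36431835-36431954, plus strand: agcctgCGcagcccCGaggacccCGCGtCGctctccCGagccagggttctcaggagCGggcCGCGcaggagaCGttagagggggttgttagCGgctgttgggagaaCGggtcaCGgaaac
WIF1, listed at 0, chr12:65121306-65121425, minus strand: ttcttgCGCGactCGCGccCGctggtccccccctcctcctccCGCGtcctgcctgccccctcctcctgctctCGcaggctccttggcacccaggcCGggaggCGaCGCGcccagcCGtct
DKK1, 513 and 482 FPKM, chr10:52314161-52314280, plus strand: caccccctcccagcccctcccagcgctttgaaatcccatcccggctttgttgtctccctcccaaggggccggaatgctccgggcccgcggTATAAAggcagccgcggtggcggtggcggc
HIST1H1E, 1172 and 1154 FPKM, chr6:26156209-26156328, plus strand: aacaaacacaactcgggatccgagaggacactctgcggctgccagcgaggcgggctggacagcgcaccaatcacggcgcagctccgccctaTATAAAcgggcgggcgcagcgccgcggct
FABP1, listed at 0, chr2:88128063-88128182, minus strand: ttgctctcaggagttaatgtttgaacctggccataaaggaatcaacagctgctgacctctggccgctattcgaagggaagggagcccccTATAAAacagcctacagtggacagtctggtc

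The paralogs CCNA2 and CCNA1 held 11 and 13 CG pairs in these 120 bases, and the silent gene was not the one poorer in CG. WIF1 held 13. The TATA word stood upstream of the silent FABP1 as well as of the highly expressed DKK1 and HIST1H1E. The promoters of DKK1 and HIST1H1E were also CpG-rich by the rule above, with 10 and 15 CG pairs in these 120 bases. That of FABP1, with 2, was not. The genes shown were chosen to hold each feature at both high and zero levels, so they say nothing of how often it does.

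Over all genes the features went with the level as follows, described across genes without a test. CpG-rich promoters made up 77.6% of detected genes, 25.5% of silent genes and 58.7% of all matched genes, beside 41.9% of the 27305 promoters in the table. Of 8787 genes with a CpG-rich promoter 1005 (11.4%) were silent, against 2943 (47.7%) of the 6175 others. Listed genes with a CpG-rich promoter and a level of 0 included KIT, WNT1, WNT3A, APCDD1, ID4, IKZF1, DAZL and LDHC.

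The TATA word, TATAAA starting 38 to 22 bases before the start site on the gene's strand, was found at both ends of the scale. It stood in 7.90% of silent genes, 1.03% of those with a mean of 1 to 10 FPKM, 0.956% of those at 10 to 100, 7.95% of those at 100 to 1000 and 11.1% of the 36 genes above, beside 3.54% of all matched genes. Histones contributed, with the word in 20 of 32. Of 379 genes at 100 FPKM or more in both libraries 35 had it, and 10 of these were histones.

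Other words were sought on both strands of the whole window, and they may overlap. CCGGAAG, the core bound by ETS factors, was in 21.5% of detected and 4.05% of silent genes, beside 14.5% of all matched genes. The GC box GGGCGG was in 73.0% and 33.5%, beside 59.7%. The NRF1 word (GCGCA followed directly by TGCGC) was in 2.53% and 0.481%, beside 1.75%, and CCAAT was in 37.3% and 36.7%, beside 36.5%. The ETS, GC box and NRF1 words each hold CG, unlike CCAAT, so they partly restate the CpG content. Whether they differ beyond it was not tested. A match is a string of letters and not a bound site.

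**Figure D5:**
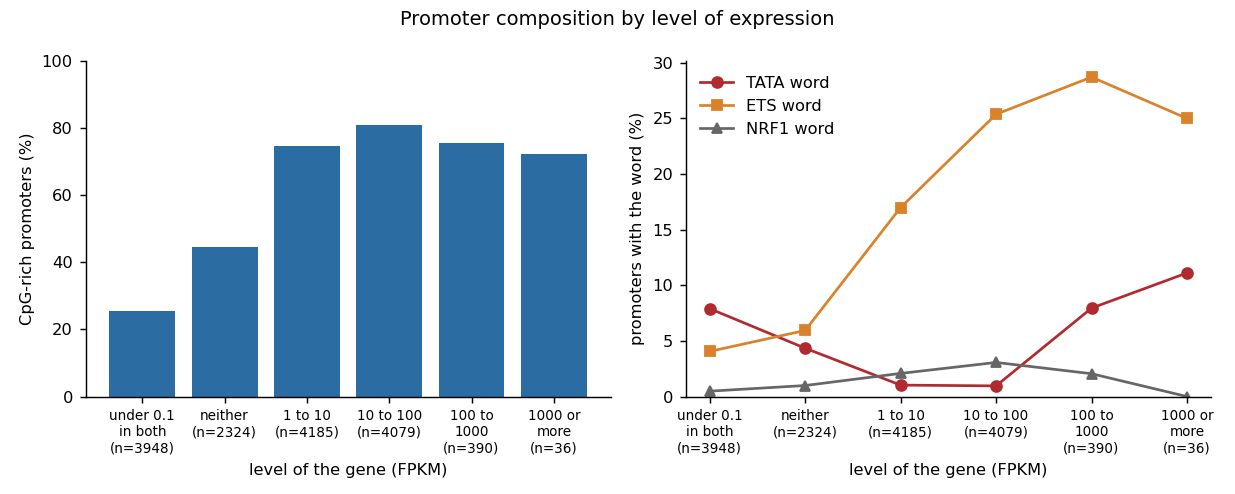
The bars give the share of CpG-rich promoters, and the lines the share with the TATA, ETS or NRF1 word, for protein-coding genes grouped by level in FPKM; n is the number of promoters, and "neither" holds genes that were neither silent nor detected. The CpG-rich share is 25.5% in silent genes and 81.0% at 10 to 100 FPKM, and the TATA word is least common at 1 to 100 FPKM.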

How the data were processed

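Total RNA of HCT116 cells was sequenced with a stranded total RNA kit, per the labels' protocols. The authors deposited gene-level FPKM from Cufflinks with confidence bounds, per the file headers. The submitters' processing notes also name STAR 2.3.0e, SAMtools 0.1.19 and hg19; the version of Cufflinks, the annotation and the strand setting are not stated in the sources used. Each run lists 63784 entries for 63653 genes, of which 131 repeated entries were summed. The 2 runs of a library were averaged and no further scaling was done. Genes on alternate or unplaced sequences (5903), Y-linked genes, XIST and 6 genes that Cufflinks marked as not reliably estimated (KDM1A, MT-RNR2, PAICS, SMAD5, SMAD5-AS1 and TFRC) were left out of counts; class shares and the 15 highest genes used the remaining genes on any sequence, alternate ones included. Depth was read from the confidence bounds as if they reflected counting error alone. Biotypes and the length of each gene's longest transcript came from GENCODE 29 by gene identifier, with the locus length where none matched, and promoters from RefSeq by symbol. Coordinates of genes are hg19, and those of promoters GRCh38.p14.

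Genes named were the 15 highest, the 30 highest nuclear protein-coding genes of at least 300 bases, the highest long noncoding RNAs, the 10 largest ratios between libraries with runs that did not overlap, and from 33 lists and 29 symbol families the highest members and those of textbook interest. The lists hold 909 genes, of which 904 had a value, 455 were detected and 273 silent; CD24, PECAM1 and CCAT2 had no match. The members and lists were chosen with earlier results of these data known. Counting steps were tested on simulated data. Python 3.11.15, pandas 2.3.3, numpy 2.4.6 and matplotlib 3.10.9 were used. Alternatives were other thresholds, TPM rescaling, single runs, single libraries and leaving out short genes. Some genes of the lists are counted in them but not reported by name here.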

Additional observations from a re-analysis of the deposited data

How the results depend on the processing

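The count of detected genes stayed within 1.5-fold of 12528 in every alternative run. Silent genes numbered 33402, and 21919 after rescaling to TPM without short genes, ribosomal and mitochondrial RNA; leaving out these genes without rescaling, added after seeing the data, gave 23275. The short structural classes held 56.1% of FPKM on average, 41.3% without loci under 300 bases, 57.3% without ribosomal RNA, 55.6% in the first runs and 56.5% in the second; FPKM times length, added after seeing the data, gave 13.5%. The median absolute log2 difference between libraries (0.157) was 0.0898 after median-of-ratios scaling, 0.183 at a mean of 1 FPKM or more, 0.167 in the first runs and 0.170 in the second. The gap in CpG-rich promoters between detected and silent genes (52.2 percentage points) was 51.1 with thresholds of 0.5 and 0.05 FPKM. EHMT2, at 16.3 FPKM on average, was at 15.6 FPKM in the first runs and 16.9 in the second, both added after seeing the data. With 1 library left out, the results ranged from 13078 to 13203 detected genes, 35052 to 35916 silent genes, 55.8% to 56.4% for the structural classes and 51.3 to 51.5 points for the promoter gap. Of 198 recounts of detected genes in the 33 lists, 193 stayed within 1.5-fold; the other 5 were colonocyte (3 to 5), fibroblast (3 to 5), Wnt ligand (3 to 5) and blood genes (2 to 6, and 2 to 5 with TPM). Except where stated, the cause of these shifts was not tested. No paired analysis was possible because the result comes from 1 group with no test. Depth limits all statements on genes below about 1 FPKM, most of all in library 2, and 2 libraries give only a rough SD.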
